A study of Mus musculus with 11 samples.

Results

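Zfp followed by a number is the working name of mouse genes whose proteins carry predicted zinc fingers, and the genes numbered below 500 are described here in meiotic and haploid male germ cells. Members were found by their current symbol on the array, which is Zfp, a number below 500 and, in some, a letter or a letter with a number after it. This gave 155 genes with 287 probes, of 19403 named genes on the array. A stricter reading that allows no letter without a number leaves out 12 of them and keeps 143. The name is no guarantee of a shared function, but most of these proteins hold arrays of C2H2 fingers, each a short fold around a zinc ion that reads a few bases of DNA.

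Many C2H2 proteins of mammals also carry a KRAB domain, through which they recruit the co-repressor TRIM28, the histone methyltransferase SETDB1 and, with them, DNA methylation to transposable elements and to some imprinted regions. Their genes lie in tandem clusters that differ between species. Other members have different tasks: Zfp36, Zfp36l1 and Zfp36l3 have CCCH fingers that bind AU-rich mRNAs and bring about their decay, and Zfp207, Zfp346 and Zfp385a bind microtubules or RNA. DNMT3L, the protein altered in these mice, has no catalytic activity of its own and helps the de novo DNA methyltransferases.

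The 11 arrays fell into 4 groups, all from C57Bl/6 males of 8 to 12 weeks, with the testis cells of 10 mice pooled into each preparation. Dnmt3L heterozygous mice, which carry 1 allele interrupted in exon 5 by a LacZ cassette with stop codons and 1 intact allele, are represented by 3 preparations of round spermatids and 2 of pachytene spermatocytes, and wild type mice by 3 of each. The methods describe 3 heterozygous spermatocyte preparations, of which 2 were analysed here. Cells were separated by size by elutriation, so a preparation holds some other testis cells, and bulk RNA cannot tell fewer cells of a type from less RNA per cell. RNA of each preparation went to 1 array of an Illumina mouse BeadChip, whose bead-bound probes report a brightness for each transcript, and values are given in log2 units after the authors' normalisation. The sample titles number the preparations, and the paper calls them biological replicates. How they were kept separate beyond this is not described, so p-values measure the spread between these preparations. According to the methods each cell type was hybridised on a BeadChip of its own, and so chip and cell type cannot be told apart.

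The probes of the 117 members that were bright enough to test correlated between arrays of a group at r = 0.911 to 0.950 in heterozygous spermatids, 0.918 to 0.977 in wild type spermatids, 0.991 in heterozygous spermatocytes and 0.974 to 0.986 in wild type spermatocytes. Of 15 round spermatid markers tested, 12 were higher in wild type spermatids, set against spermatocytes, and none of 6 spermatocyte markers was called. Of 10 spermatogonial markers Uchl1, Sohlh1 and Kit were higher and Id4 lower, and of 7 peritubular and stroma markers Actg2, Dcn and Acta2 were higher. The mean over the peritubular and stroma list was 8.53 to 8.93 in heterozygous spermatids and 8.46 to 9.45 in wild type spermatids, against 7.55 to 7.58 in heterozygous spermatocytes and 7.46 to 7.61 in wild type spermatocytes. All 7 macrophage and blood markers tested were higher as well, with a mean over the list of 9.09 to 9.20 in heterozygous spermatids and 8.61 to 10.26 in wild type spermatids, against 7.14 to 7.22 in heterozygous spermatocytes and 7.06 to 7.27 in wild type spermatocytes. The Dnmt3l probe averaged 10.47 ± 0.61 in heterozygous spermatids and 10.62 ± 0.38 in wild type spermatids (SD, n = 3 each), and 8.74 ± 0.11 in heterozygous spermatocytes and 8.18 ± 0.09 in wild type spermatocytes (SD, n = 2 and 3). It passed the test in neither genotype comparison (adjusted p = 0.868 and 0.374). By the paper's description the probe lies in the last exon, 3′ of the insertion and shared by the shorter transcripts. The genotypes overlapped in spermatids, and in spermatocytes the heterozygous arrays were the higher ones without overlap, so the probe gives no check of the genotype labels.

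Probes were ranked by their mean, and the lowest 40% were not tested. This kept 117 of the 155 members, or 75.5%, against 73.1% of all named genes. The other 38 had means of 6.59 to 6.79, where the median of every array was 6.87, and they were not tested. Among them were Zfp59, described in male germ cells, and 3 of the 8 X-linked members. A member with several probes was counted once, by the kept probe with the highest mean, and a gene was called where limma gave an adjusted p below 0.05.

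More members were lower than higher in round spermatids. In heterozygous cells 10 of 117 were higher in spermatids, or 8.55%, beside a background of 10.5% of all 14186 named genes tested, and 17 were lower, or 14.5%, beside a background of 11.0%. In wild type cells 12 were higher (10.3%, beside a background of 14.2%) and 29 were lower (24.8%, beside a background of 16.9%). The median difference of the members, spermatids minus spermatocytes, was -0.09 in heterozygous and -0.14 in wild type cells, where that of all named genes was -0.03. After a further cyclic loess normalisation heterozygous cells had 11 higher and 12 lower members and wild type cells had 13 higher and 25 lower. Zfp genes numbered 500 and up, of which 107 were tested, had 9 higher and 26 lower in wild type cells. Called sizes ran from 0.29 to 2.15 log2 units with a median of 0.94. The heterozygous count of calls was 10 or 14 without either heterozygous spermatocyte array and 42 without heterozygous spermatid array 2, and the wild type count was 27 without wild type spermatocyte array 3.

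**Figure D1:**
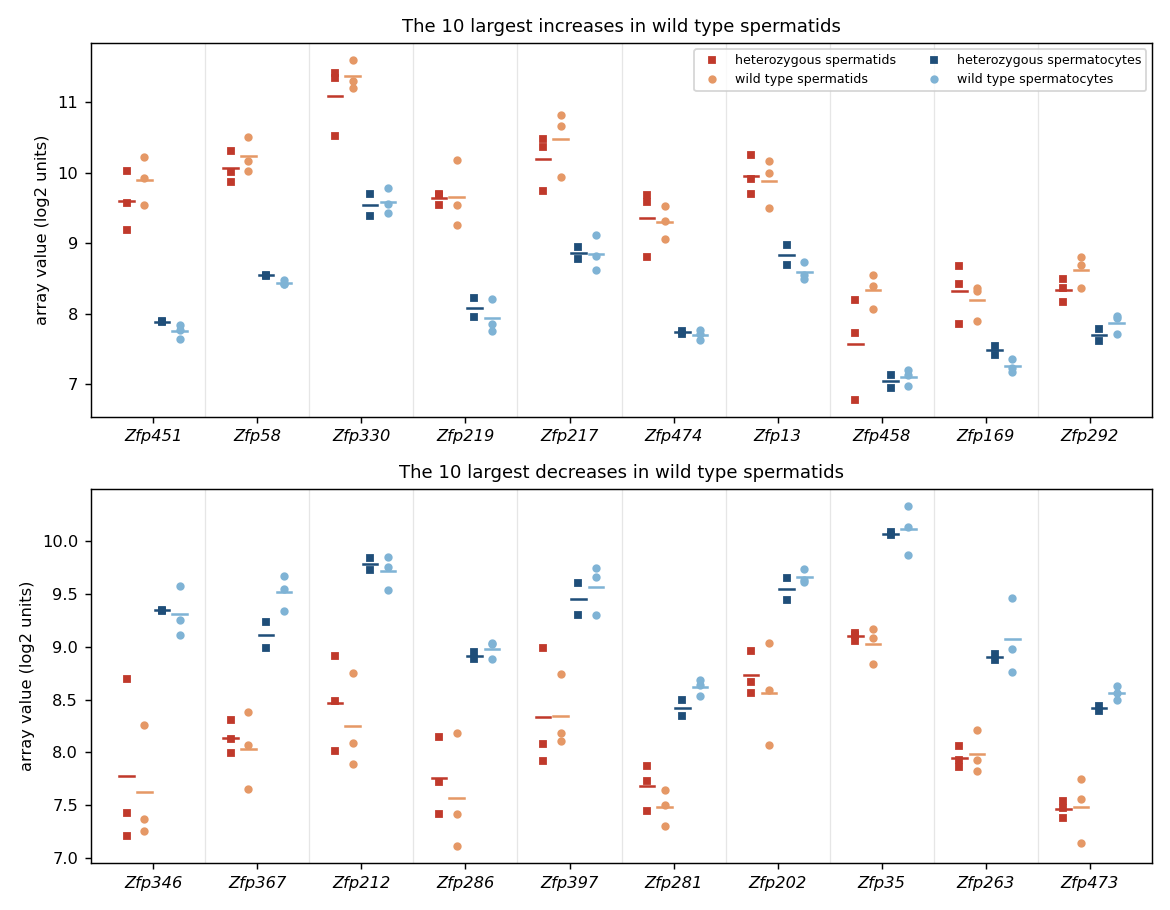
Array values (log2 units, vertical axis) of 10 Zfp genes that rose most and 10 that fell most in wild type spermatids, by group. Each point is 1 array and each short line a group mean. In the lower panel wild type spermatid array 2 is the upper spermatid point for genes such as Zfp346, at 8.26 against 7.25 and 7.37.

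Among the 12 members that were higher in wild type spermatids, Zfp451 had the largest difference. It encodes a ligase that attaches SUMO to other proteins. Its values were 10.02, 9.19 and 9.58 in heterozygous spermatids and 9.93, 9.54 and 10.23 in wild type spermatids, against 7.88 and 7.90 in heterozygous spermatocytes and 7.65, 7.77 and 7.84 in wild type spermatocytes. Every spermatid array lay above every spermatocyte array by more than a log2 unit. The difference was 1.71 ± 0.24 (SE, adjusted p = 0.00377) in heterozygous cells and 2.15 ± 0.22 (adjusted p = 0.00104) in wild type cells, or 3.27-fold and 4.43-fold.

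Zfp58 is a KRAB gene of a cluster on chromosome 13. Its heterozygous arrays stood at 10.30, 9.87 and 10.01 in spermatids and at 8.55 and 8.54 in spermatocytes, and its wild type arrays at 10.16, 10.03 and 10.50 in spermatids and at 8.48, 8.42 and 8.42 in spermatocytes. The spread within spermatocytes was small beside the difference of 1.51 ± 0.15 in heterozygous cells (adjusted p = 0.000968) and 1.79 ± 0.13 in wild type cells (adjusted p = 0.000283). These adjusted p-values were the lowest of any member in each genotype. Its neighbour on the chromosome, Zfp87, was not called, with a difference of 0.35 in wild type cells.

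Zfp474, first described as a testis-specific zinc finger gene, stood at 9.59, 8.81 and 9.69 in heterozygous spermatids and 9.53, 9.07 and 9.32 in wild type spermatids, against 7.76 and 7.71 in heterozygous spermatocytes and 7.77, 7.71 and 7.63 in wild type spermatocytes. The 2 genotypes gave nearly the same difference, 1.62 in heterozygous and 1.60 in wild type cells. It is also the member with the highest number below 500 among those on the array that were tested, and the next gene above that number, Zfp507, differed by -0.63 in heterozygous and -0.71 in wild type cells.

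Zfp330, which encodes a nucleolar protein, was higher in every spermatid array, with 11.42, 10.52 and 11.34 in heterozygous spermatids and 11.30, 11.21 and 11.60 in wild type spermatids, against 9.70 and 9.39 in heterozygous spermatocytes and 9.56, 9.43 and 9.79 in wild type spermatocytes. The difference was 1.55 in heterozygous cells (adjusted p = 0.00694) and 1.78 in wild type cells (adjusted p = 0.00260). Zfp219, a transcription factor studied in cartilage formation, differed by 1.55 and 1.72 in heterozygous and wild type cells, with wild type spermatids at 9.25 to 10.18 and wild type spermatocytes at 7.76 to 8.22.

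Zfp217, a co-repressor partner amplified in some human cancers, had 10.48, 9.73 and 10.36 in heterozygous spermatids and 10.67, 9.93 and 10.82 in wild type spermatids, against 8.78 and 8.95 in heterozygous spermatocytes and 8.82, 8.62 and 9.12 in wild type spermatocytes. Spermatid array 2 was the lowest of the 3 in both genotypes. The difference was 1.33 in heterozygous cells (adjusted p = 0.0219) and 1.62 in wild type cells (adjusted p = 0.00633).

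Smaller increases passed the test in wild type cells for Zfp13, Zfp169, Zfp292, Zfp317 and Zfp36l3, at 1.13, 0.83, 0.64, 0.52 and 0.37 in heterozygous cells and 1.29, 0.94, 0.75, 0.65 and 0.30 in wild type cells. The wild type call of Zfp169 was lost without wild type spermatid array 1 or 3 or wild type spermatocyte array 1 or 2 (adjusted p = 0.0577 to 0.0654), and that of Zfp292 when its 3 kept probes were averaged (0.31, adjusted p = 0.0688). Zfp458 differed by 0.52 in heterozygous cells, where it was not called, and by 1.23 in wild type cells (adjusted p = 0.0325). Its heterozygous spermatid arrays were far apart at 8.20, 7.73 and 6.78, and wild type spermatids read 8.55, 8.06 and 8.40. The call in wild type cells was lost without any single spermatocyte array or without wild type spermatid array 1 or 3, with adjusted p = 0.0657 to 0.107, and with no filter on dim probes (adjusted p = 0.0559).

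The 29 members that were lower in spermatids began with Zfp346, a protein that binds double-stranded RNA. It had 7.21, 8.69 and 7.42 in heterozygous spermatids and 7.37, 8.26 and 7.25 in wild type spermatids, against 9.34 and 9.35 in heterozygous spermatocytes and 9.26, 9.57 and 9.11 in wild type spermatocytes. No spermatid array overlapped a spermatocyte array, but those numbered 2 stood apart from the other two in each genotype. The difference was -1.57 ± 0.44 in heterozygous cells (adjusted p = 0.0508) and -1.69 ± 0.39 in wild type cells (adjusted p = 0.0251), and the wild type call was lost without any single spermatocyte array or without wild type spermatid array 1 or 3, with adjusted p = 0.0543 to 0.0862.

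Zfp367 encodes a C2H2 transcription factor, and it had 7.99, 8.31 and 8.12 in heterozygous spermatids and 8.07, 8.39 and 7.66 in wild type spermatids, against 9.23 and 8.99 in heterozygous spermatocytes and 9.34, 9.55 and 9.67 in wild type spermatocytes. The heterozygous spermatocyte arrays were the lowest of the spermatocyte arrays. The difference was -0.97 ± 0.20 in heterozygous cells (adjusted p = 0.0161) and -1.48 ± 0.18 in wild type cells (adjusted p = 0.00193).

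Zfp281, which in mouse embryonic stem cells helps to control pluripotency genes, was lower by a similar margin. It read 7.45, 7.88 and 7.73 in heterozygous spermatids and 7.51, 7.65 and 7.31 in wild type spermatids, against 8.50 and 8.35 in heterozygous spermatocytes and 8.54, 8.64 and 8.69 in wild type spermatocytes. Its difference was -0.74 ± 0.14 in heterozygous cells (adjusted p = 0.0107). This call was lost without heterozygous spermatocyte array 1 (adjusted p = 0.0734) and with only the 2 compared groups in the fit. In wild type cells the difference was -1.13 ± 0.12 (adjusted p = 0.00133), which kept its call in all 22 alternatives, at -1.21 to -0.95.

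Zfp473 encodes a protein that in human cells takes part in the 3′ processing of replication-dependent histone mRNAs. Its spermatid values were 7.38, 7.54 and 7.48 in heterozygous cells and 7.55, 7.75 and 7.14 in wild type cells, and its spermatocyte values 8.40 and 8.44 in heterozygous cells and 8.56, 8.63 and 8.50 in wild type cells. The difference was -0.95 in heterozygous and -1.08 in wild type cells (adjusted p = 0.00550 and 0.00218).

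Other decreases of about a log2 unit or more in wild type cells were those of Zfp212 (-1.47), Zfp286 (-1.41), Zfp397 (-1.22), Zfp202 (-1.09), Zfp35 (-1.08), Zfp263 (-1.08) and Zfp236 (-1.03), and these differed by -0.81 to -1.31 in heterozygous cells. All 4 kept probes of Zfp212 were called lower in wild type cells, at -0.77 to -1.47. Zfp397 lost its call in wild type cells without wild type spermatid array 1 or 3, wild type spermatocyte array 2 or 3 or either heterozygous spermatocyte array, with adjusted p = 0.0528 to 0.0890. The remaining 18 decreases lay between -0.95 for Zfp472 and -0.29 for Zfp354a, a KRAB gene first described in kidney.

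These genes differed in the same direction in both genotypes. No array is shared between the 2 comparisons, but by the methods both genotypes of a cell type were on the same BeadChip. A difference between the chips would enter both comparisons, so their agreement does not separate chip from cell type. All 12 members called higher and all 29 called lower in wild type cells had the same sign in heterozygous cells, beside 99.9% of higher and 99.8% of lower calls among all named genes. Of these, 10 of 12 and 16 of 29 were also called in heterozygous cells, or 83.3% and 55.2%, where 67.6% and 57.8% of the calls of all named genes were. The median difference of the 12 was 1.23 in heterozygous and 1.45 in wild type cells, and that of the 29 was -0.76 in heterozygous and -0.89 in wild type cells. Among the 20 members with the largest wild type changes, leaving out either heterozygous spermatocyte array ended the heterozygous calls of Zfp169, Zfp212, Zfp217, Zfp263, Zfp286 and Zfp292, leaving out array 1 those of Zfp13, Zfp281 and Zfp367, and leaving out array 2 that of Zfp330, with adjusted p = 0.0518 to 0.201 and no change of sign. Zfp169, Zfp217, Zfp286 and Zfp292 also lost the heterozygous call without at least 1 heterozygous spermatid array. With only the 2 compared groups in the fit, the heterozygous calls of Zfp169, Zfp212, Zfp281, Zfp286, Zfp292 and Zfp330 were lost. Only Zfp248 was called in heterozygous cells alone, at -0.71 in heterozygous and -0.54 in wild type cells (adjusted p = 0.0317 and 0.0583). The difference between the 2 genotypes was tested as an interaction of genotype and cell type, given further on, and no member passed.

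**Figure D2:**
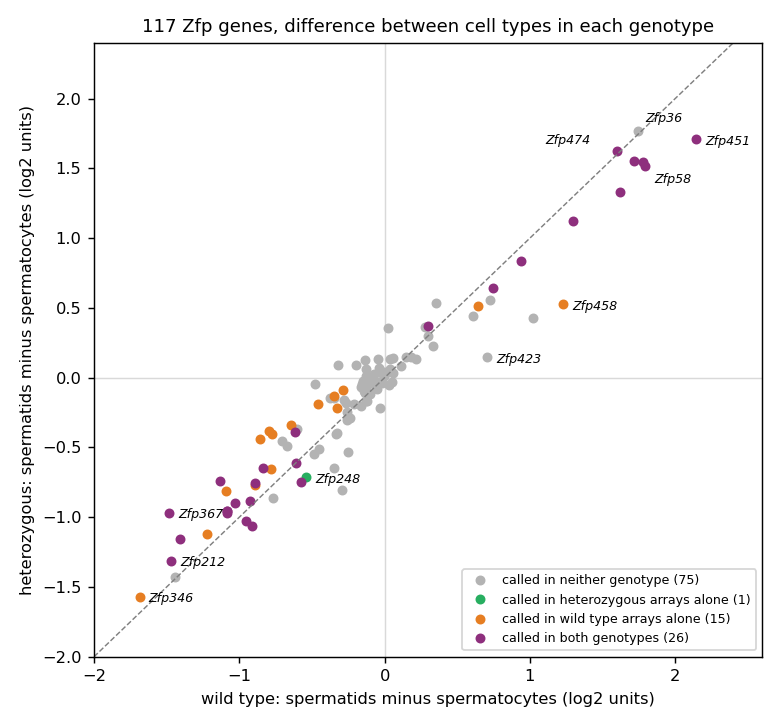
Difference between spermatids and spermatocytes (log2 units) of the 117 tested Zfp genes in wild type cells (horizontal axis) and heterozygous cells (vertical axis), with the line of equal values dashed. Each point is a gene, coloured by the genotypes in which it was called: 26 in both, 1 in heterozygous cells alone, 15 in wild type cells alone and 75 in neither.

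Spermatid arrays numbered 2 lay closest to spermatocytes. For the 12 higher members the mean distance from the spermatocyte mean of the same genotype was 1.31, 0.83 and 1.17 in heterozygous spermatid arrays 1, 2 and 3, and 1.39, 1.04 and 1.52 in wild type arrays 1, 2 and 3. For the 29 lower members it was -0.88, -0.56 and -0.75 in heterozygous arrays and -0.93, -0.66 and -1.12 in wild type arrays. Array 2 was the nearest of its 3 for 20 of the 29 lower members in heterozygous cells (69.0%) and 27 in wild type cells (93.1%). Among the lower calls of all named genes it was the nearest for 68.1% in heterozygous and 80.8% in wild type cells. Without both arrays numbered 2, the count of members called was 42 in heterozygous cells.

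By role, the 5 tested members described in male germ cells did not move together. Zfp474 was higher, while Zfp318 and Zfp35 were lower. The background for this and the role lists that follow was 14.2% of all named genes higher and 16.9% lower in wild type spermatids. Zfp318, a large nuclear protein first found in testis, had 9.36, 9.99 and 9.51 in heterozygous spermatids and 9.85, 10.08 and 9.52 in wild type spermatids, against 10.63 and 10.38 in heterozygous spermatocytes and 10.54, 10.61 and 11.08 in wild type spermatocytes, with a difference of -0.88 in heterozygous and -0.93 in wild type cells (adjusted p = 0.0448 and 0.0241).

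Zfp35 is a gene described in mouse meiotic cells, and it had 9.05, 9.13 and 9.11 in heterozygous spermatids and 9.08, 9.17 and 8.84 in wild type spermatids, against 10.08 and 10.06 in heterozygous spermatocytes and 9.87, 10.14 and 10.33 in wild type spermatocytes. Here spermatid arrays numbered 2 did not stand apart. Zfp37, described in spermatids, and Zfp42, known as Rex1 and a marker of mouse pluripotent cells, were not called, with differences of -0.01 and 0.06 in wild type cells and array values of 6.87 to 7.14 and 6.67 to 6.86.

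Of the 3 CCCH genes tested, only Zfp36l3 was called. Zfp36l3 is a rodent X-linked gene known from placenta, and its arrays stood at 7.29, 6.95 and 7.01 in heterozygous spermatids and 7.06, 7.01 and 7.05 in wild type spermatids, against 6.72 and 6.70 in heterozygous spermatocytes and 6.77, 6.72 and 6.74 in wild type spermatocytes. The groups did not overlap, and the difference was 0.37 in heterozygous and 0.30 in wild type cells (adjusted p = 0.0314 and 0.0479) close to the dim end of the scale. Zfp36, or tristetraprolin, is an immediate early gene that limits inflammatory mRNAs. It had a larger difference, 1.77 in heterozygous and 1.74 in wild type cells, that did not pass (adjusted p = 0.162 and 0.121).

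The Zfp36 arrays were widely spread, at 9.16, 10.29 and 9.45 in heterozygous spermatids and 10.00, 8.28 and 10.85 in wild type spermatids, against 7.75 and 7.98 in heterozygous spermatocytes and 8.65, 7.97 and 7.28 in wild type spermatocytes. Wild type spermatid array 2 lay below wild type spermatocyte array 1. The list means of the macrophage and blood markers and of the peritubular and stroma markers, given above, were also higher in every spermatid array than in any spermatocyte array, and their part in the values of Zfp36 was not tested. Among 26 mRNA decay partners tested, which include the deadenylase and decapping genes, Parn was higher and 10 were lower in wild type spermatids, among them Dcp1a at -1.12 and Elavl1 at -0.87. Over all named genes 14.2% were higher and 16.9% lower. The list median was -0.34 in wild type cells, beside -0.03 for all named genes. Between the genotypes only Xrn1 of this list was called. It was higher in heterozygous spermatids (0.36, adjusted p = 0.0170) and heterozygous spermatocytes (0.34, adjusted p = 0.0336), beside backgrounds of 0.409% and 0.197% of named genes called.

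Of 6 members that bind RNA or the spindle, Zfp330 was higher in wild type spermatids and Zfp207, Zfp346 and Zfp326 were lower. Over all named genes 14.2% were higher and 16.9% lower. Zfp326, a splicing-associated protein, differed by -0.65 in heterozygous and -0.78 in wild type cells. Zfp106 and Zfp385a were not called, at 0.30 and 0.04 in wild type cells.

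Zfp207 encodes BuGZ, which binds microtubules and helps chromosomes to align on the spindle, and its probes were called in opposite directions. The probe with the highest mean had 9.32, 9.50 and 9.72 in heterozygous spermatids and 9.46, 9.50 and 9.13 in wild type spermatids, against 9.96 and 9.82 in heterozygous spermatocytes and 10.14, 10.37 and 9.97 in wild type spermatocytes, a difference of -0.80 in wild type cells (adjusted p = 0.00960). A second probe differed by 0.64 in heterozygous cells and 0.76 in wild type cells (adjusted p = 0.0302). The remaining probe was not called, at -0.11 in wild type cells. Which transcripts of Zfp207 the probes read was not examined.

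**Figure D3:**
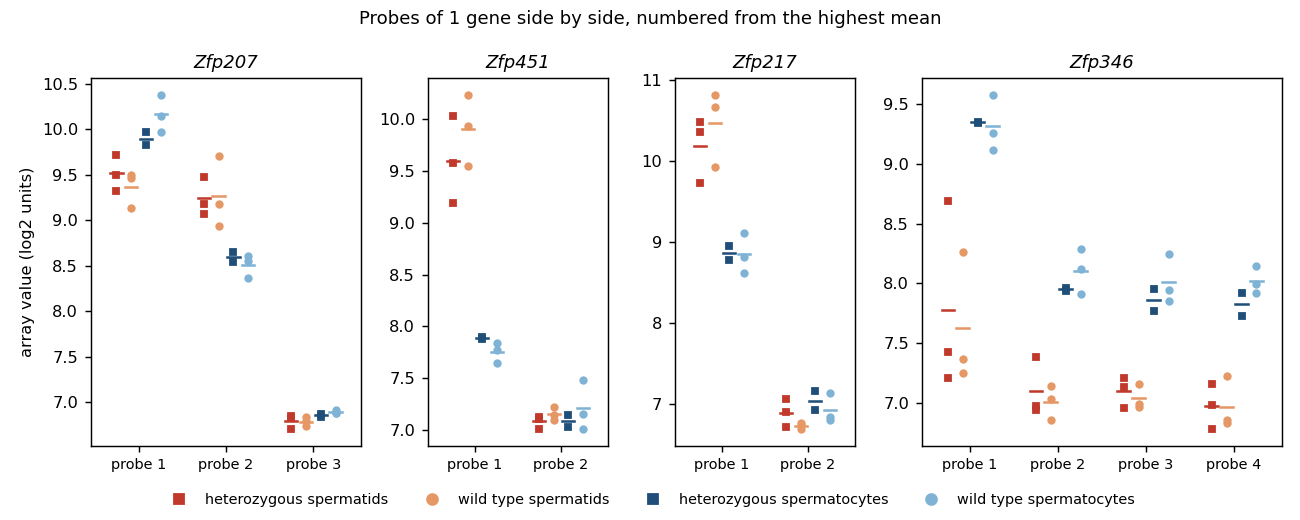
Array values (log2 units, vertical axis) of each kept probe of Zfp207, Zfp451, Zfp217 and Zfp346, numbered from the highest mean. Points are arrays and short lines group means; probes 1 and 2 of Zfp207 differ in opposite directions between the cell types, by -0.80 and 0.76 in wild type cells, whereas all 4 probes of Zfp346 are lower in spermatids.

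Zfp207 was the only such case among 42 members with at least 2 kept probes. In wild type cells all kept probes shared a sign in 32 of the 42, at least 1 probe was called in 27, and all were called in 8. Zfp346 was one of these, with its other 3 probes at -1.09, -0.97 and -1.05. The increases were less uniform. Of the 12 members called higher in wild type cells 7 had other kept probes, and none of these was called in wild type cells. The second probe of Zfp451 differed by -0.06, that of Zfp217 by -0.19 and that of Zfp219 by 0.03 in wild type cells, at mean levels of 7.14, 6.89 and 6.89. Averaging the kept probes of a gene brought the difference of Zfp451 to 0.85 in heterozygous and 1.04 in wild type cells, that of Zfp217 to 0.59 and 0.72 and that of Zfp219 to 0.77 and 0.87, and all 3 were still called in both genotypes. Another 5 members, Zfp93, Zfp148, Zfp251, Zfp410 and Zfp445, were not called by the probe used for the counts but had another probe called lower in wild type cells.

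Members with described roles in chromatin and transcription were split. Of 10 tested, Zfp217 and Zfp451 were higher, Zfp281 was lower, and the other 7 were not called in either genotype by the probe used for the counts. Over all named genes 14.2% were higher and 16.9% lower in wild type spermatids. Zfp131, Zfp148, Zfp335, Zfp384 and Zfp64 differed by -0.71, -0.35, -0.27, -0.13 and 0.22 in wild type cells. The other probe of Zfp148 was called lower in wild type cells at -0.53 (adjusted p = 0.0149). Zfp423, a partner of EBF factors known in fat and brain development, had 11.31, 10.63 and 11.19 in heterozygous spermatids and 11.12, 10.92 and 11.08 in wild type spermatids, against 10.67 and 11.13 in heterozygous spermatocytes and 10.89, 10.15 and 9.97 in wild type spermatocytes, and the arrays of heterozygous cells overlapped. Zfp410, which activates the chromatin remodeller gene Chd4 in mouse and human cells, differed by 0.09 in heterozygous and -0.19 in wild type cells by the probe used for the counts, and another of its probes was called lower in wild type cells at -0.26 (adjusted p = 0.0141).

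Zfp445 helps to maintain imprints after fertilisation. It had 7.18, 7.10 and 7.33 in heterozygous spermatids and 7.13, 7.10 and 7.08 in wild type spermatids, against 7.44 and 7.37 in heterozygous spermatocytes and 7.33, 7.22 and 7.26 in wild type spermatocytes. Within each genotype the groups did not overlap, but the differences of -0.20 in heterozygous and -0.16 in wild type cells were not called (adjusted p = 0.138 and 0.188). These are values of the probe used for the counts. Of its 2 other kept probes 1 was called lower in wild type cells, at -0.38 (adjusted p = 0.0333), and the other differed by -0.12 (adjusted p = 0.464).

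Of 16 tested genes of the KRAB co-repressor pathway, 6 were lower in wild type spermatids and 1, Dnmt3l itself, was higher. The lower genes were Uhrf1 (-1.14), which brings the maintenance methyltransferase to replicated DNA, Sumo2 (-1.07), Dnmt1 (-0.88), Chd4 (-0.68), Atf7ip (-0.60) and Hdac2 (-0.33). Setdb1 differed by -0.70 and Trim28, the co-repressor that KRAB domains bind, by -0.31, neither called (adjusted p = 0.0691 and 0.239). Over all named genes 16.9% were lower and 14.2% higher in wild type spermatids. The list median was -0.38 in wild type cells, beside -0.03 for all named genes. None of the 16 was called between the genotypes, where 0.409% of all named genes were called in spermatids and 0.197% in spermatocytes.

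Members clustered on a few chromosomes. Chromosome 7 held 33 of the 155, or 21.3%, beside 8.60% of all named genes, followed by chromosome 17 with 16 and chromosome 13 with 15. Of 23 members tested on chromosome 7, 9 were lower in wild type spermatids and none was higher, with a median difference of -0.32, beside -0.02 for all named genes of that chromosome. Chromosome 13 had 3 higher and 3 lower of 13 tested and a median of 0.04. Over all named genes tested, 16.9% were lower and 14.2% higher in wild type spermatids, and these shares were not counted by chromosome. Genes of the cluster on chromosome 7 are similar in sequence, and whether a probe reads more than its own gene was not examined.

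**Figure D4:**
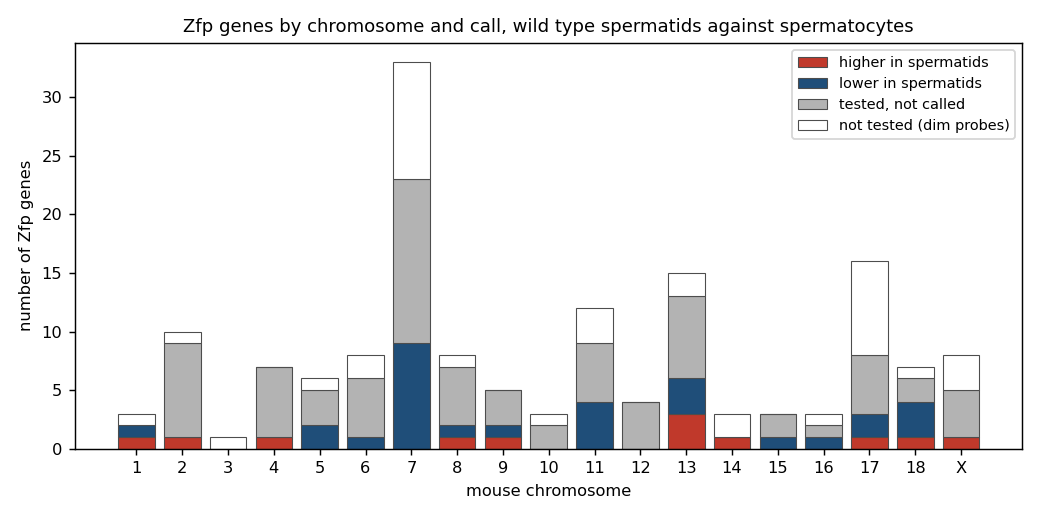
Number of Zfp genes (vertical axis) on each mouse chromosome (horizontal axis), split by their call in wild type spermatids against wild type spermatocytes and with those not tested in white. Chromosome 7 has 33 genes, 23 of them tested, with 9 lower and none higher, and chromosome 13 has 3 higher and 3 lower of 13 tested. Over all named genes tested, 16.9% were lower and 14.2% higher.

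There were 33 pairs of members that are next to each other in the gene order, 17 of them with both genes tested. The 2 genes of a pair had the same sign in wild type cells in 16 of the 17, and both were called in the same direction in 2, Zfp397 with Zfp35 on chromosome 18 (-1.22 and -1.08) and Zfp14 with Zfp82 on chromosome 7 (-0.91 and -0.77). No pair was called in opposite directions. Of all 117 members 34 had a positive difference, so most members already shared a sign. Some members belong to several pairs, and the share among neighbouring pairs of all named genes was not counted. The 16 of 17 is therefore a description.

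Of 8 X-linked members 5 were tested. Besides Zfp36l3 none was called. Zfp185, a LIM domain protein of the actin cytoskeleton rather than a DNA-binding finger protein, had 7.14, 7.41 and 7.15 in heterozygous spermatids and 7.31, 6.97 and 8.05 in wild type spermatids, against 6.76 and 6.82 in heterozygous spermatocytes and 6.90, 6.81 and 6.81 in wild type spermatocytes. All spermatid arrays were above all spermatocyte arrays, but with the spread in wild type spermatids the difference of 0.44 in heterozygous and 0.61 in wild type cells did not pass (adjusted p = 0.383 and 0.142). Zfp275 differed by 0.15 and 0.18, Zfp449 by 0.05 and 0.04 and Zfp182 by 0.01 and -0.0034 in heterozygous and wild type cells. The median of the 5 was 0.18 in wild type cells, beside 0.29 for all named X-linked genes.

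Between the genotypes no member was called. Among all named genes limma called 28 in spermatocytes, a background of 0.197%, and 58 in spermatids, a background of 0.409%. At an unadjusted p below 0.05 there were 7 members in spermatids, or 5.98% beside a background of 5.20%, and none in spermatocytes beside a background of 3.01%. Of all 176 kept probes of members none was called by limma. Their smallest adjusted p was 0.0565 in spermatids and 0.0860 in spermatocytes. At an unadjusted p below 0.05 there were 10 probes in spermatids (5.68%, beside 5.17% of all kept probes) and 3 in spermatocytes (1.70%, beside 2.92%). The arrays of the 2 genotypes were apart for 7 members in spermatids, or 5.98% beside a background of 7.86%, and for 23.1% of the members in spermatocytes, beside a background of 23.5%. The median difference, heterozygous minus wild type, was 0.03 in spermatids and -0.03 in spermatocytes, where that of all named genes was 0.01 in each. It was positive for 57.3% of members in spermatids, beside 53.6% of named genes, and for 36.8% in spermatocytes, beside 52.9%. The 95% intervals from the fit reached a median of 0.28 to each side in spermatids and 0.31 in spermatocytes, and the interval lay within 1 log2 unit of no difference for 111 and 112 of the 117 members.

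In spermatids the smallest p-values among the probes used for the counts belonged to Zfp414, Zfp316 and Zfp385b. Zfp414, a little studied C2H2 gene, had 7.48, 7.50 and 7.49 in heterozygous spermatids, against 7.35, 7.34 and 7.30 in wild type spermatids, and 7.56 and 7.61 in heterozygous spermatocytes, against 7.48, 7.39 and 7.54 in wild type spermatocytes. By this probe it was the only member whose heterozygous arrays lay beyond all wild type arrays in the same direction in both cell types, where 1.44% of all named genes did so. The differences were small, 0.16 in spermatids (95% interval 0.05 to 0.28, adjusted p = 0.0827) and 0.12 in spermatocytes (-0.02 to 0.25, adjusted p = 0.298). The pattern was that of 1 probe. The other kept probe of Zfp414 differed by 0.02 in spermatids and -0.02 in spermatocytes, with overlapping arrays in both, and the mean of the 2 probes differed by 0.09 in spermatids (adjusted p = 0.395).

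Zfp316 had 7.63, 7.80 and 7.66 in heterozygous spermatids and 7.33, 7.64 and 7.40 in wild type spermatids. The groups overlapped by 1 array, and the difference was 0.24 (95% interval 0.05 to 0.43, adjusted p = 0.121). Without wild type spermatid array 2 it was 0.33 and called (adjusted p = 0.0181), and it was also called with array quality weights at 0.29 (adjusted p = 0.0424). Zfp385b, a relative of the RNA-binding Zfp385a, had 7.45, 7.42 and 7.72 in heterozygous spermatids and 7.36, 7.20 and 7.23 in wild type spermatids, with a difference of 0.27 (adjusted p = 0.123).

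Other genotype calls appeared only when 1 array was left out. Without heterozygous spermatid array 1, Zfp72 (-0.85, adjusted p = 0.0306) and Zfp458 (-1.08, adjusted p = 0.0377) were lower in heterozygous spermatids. Both are genes of chromosome 13, and in both heterozygous spermatid array 3 was the lowest of the spermatid arrays, at 6.98 and 6.78. Without heterozygous spermatid array 2, Zfp46 (-0.52, adjusted p = 0.0325) was lower and Zfp365 (0.24, adjusted p = 0.0360) higher. With all arrays the differences of these 4 genes were -0.44, -0.77, -0.24 and 0.12, with adjusted p = 0.536, 0.166, 0.660 and 0.547.

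**Figure D5:**
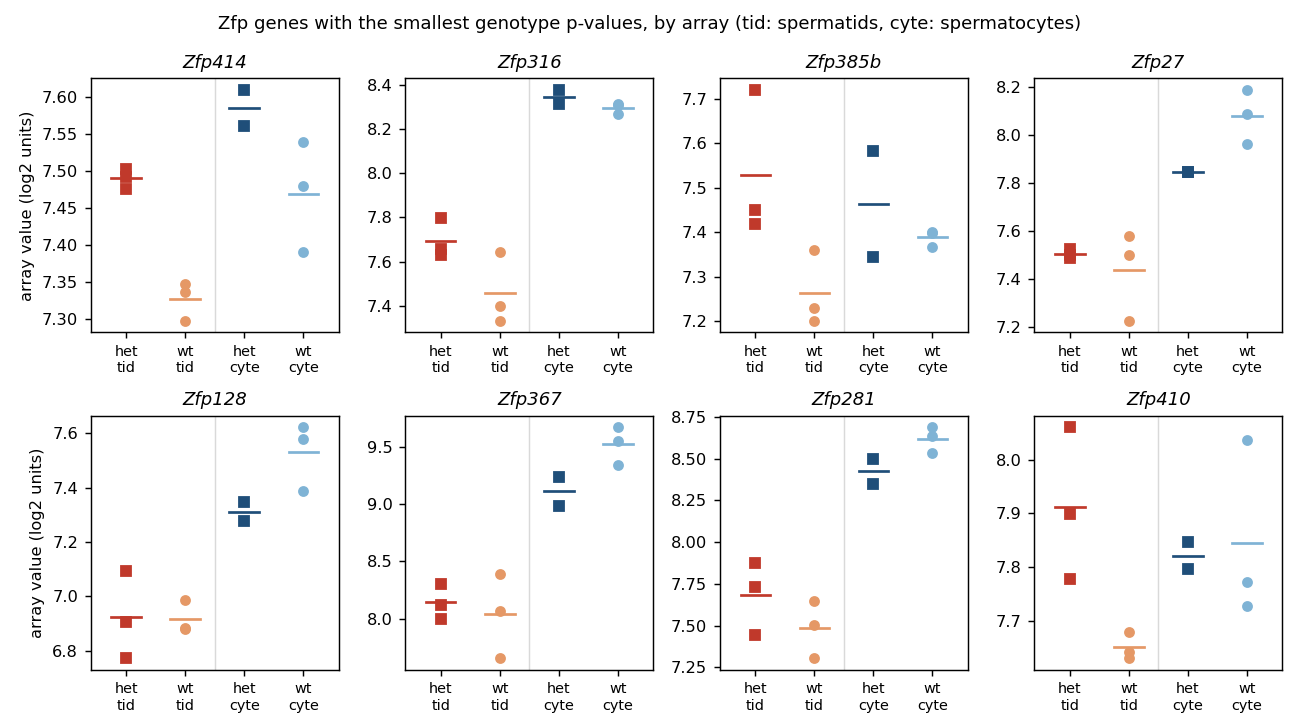
Array values (log2 units, vertical axis, a scale for each gene) of 8 Zfp genes with the smallest p-values between the genotypes or in the interaction, in heterozygous and wild type spermatids (left pair) and heterozygous and wild type spermatocytes (right pair). Values and ranks are those of the probe used for the counts. Points are arrays and short lines group means; heterozygous spermatids of Zfp414 lie at 7.48 to 7.50, above the wild type spermatids at 7.30 to 7.35.

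In spermatocytes the smallest p-values among the probes used for the counts were those of Zfp27, Zfp128 and Zfp367, all lower in value in heterozygous cells. Zfp27, a KRAB gene of chromosome 7, had 7.85 and 7.84 in heterozygous spermatocytes, against 7.96, 8.09 and 8.19 in wild type spermatocytes, with a difference of -0.23 (95% interval -0.47 to 0.0032, adjusted p = 0.232). Zfp128 differed by -0.22 (adjusted p = 0.271) with 7.28 and 7.35 in heterozygous and 7.39 to 7.62 in wild type spermatocytes, and Zfp367 by -0.41 (adjusted p = 0.281). The other kept probe of Zfp367 differed by -0.04. With the counted probes of all 3 genes the groups did not overlap, which 23.5% of all named genes share, as given above.

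No member, and no named gene at all, passed in the interaction, which asks whether the heterozygous minus wild type difference in spermatids differs from that in spermatocytes (a background of 0%). At an unadjusted p below 0.05 there were no members and 278 named genes. The smallest p-values of members were 0.0598 for Zfp27, 0.0605 for Zfp281 and 0.0761 for Zfp410. Zfp281 differed by 0.20 in spermatids and -0.20 in spermatocytes, an interaction of 0.40 (95% interval -0.02 to 0.81, adjusted p = 1.00). The opposite signs were those of 1 probe. The other kept probe of Zfp281 was lower in value in heterozygous cells of both types, at -0.216 in spermatids and -0.375 in spermatocytes.

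Over all 11 arrays, the named member whose values ran most like those of Zfp27 was Zfp367 (r = 0.985), followed by Zfp236 (0.958) and Zfp35 (0.956). All 4 were lower in wild type spermatids, and the arrays share the difference between cell types. Zfp280b (0.778), Zfp445 (0.768) and Zfp1 (0.732) ran most like Zfp414.

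Promoters from RefSeq, 250 bases before to 50 after the start of the gene on GRCm38.p6, were matched for 126 of the 155 members. Every word of 11 bases in them was counted on both strands, and the one in most members was ACTACATTTCC, in 17 promoters or 13.5%. It was in 6.92% of 130 promoters of Zfp genes numbered 500 and up and in 0.823% of all 17492 promoters. The word was picked for its count in the members, so the higher share is a description. Sites of 7 tested members are shown, those of the 3 called in wild type cells, that of Zfp72 and those of the 3 remaining on chromosome 7, on the strand of the word, with the word in capitals and 10 bases on each side.
Zfp14, chr7:30051390-30051420, minus strand: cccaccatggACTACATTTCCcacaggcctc
Zfp84, chr7:29768520-29768550, minus strand: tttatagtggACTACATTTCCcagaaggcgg
Zfp94, chr7:24316803-24316833, plus strand: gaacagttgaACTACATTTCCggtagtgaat
Zfp420, chr7:29859910-29859940, plus strand: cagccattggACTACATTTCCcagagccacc
Zfp317, chr9:19621857-19621887, plus strand: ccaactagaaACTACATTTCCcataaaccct
Zfp72, chr13:74390861-74390891, plus strand: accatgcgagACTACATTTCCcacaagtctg
Zfp458, chr13:67269151-67269181, plus strand: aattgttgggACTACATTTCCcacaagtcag

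Of the 17 members with the word, 9 lie on chromosome 7 and 7 were too dim to test. Among the 10 tested, Zfp317 and Zfp458 were higher in wild type spermatids, Zfp14 was lower and 7 were not called. Over all named genes tested 14.2% were higher and 16.9% lower. Zfp14 had 6.89, 7.36 and 6.83 in heterozygous spermatids and 6.86, 7.20 and 6.94 in wild type spermatids, against 8.30 and 7.88 in heterozygous spermatocytes and 8.05, 7.87 and 7.80 in wild type spermatocytes. No spermatid array reached a spermatocyte array, and the difference was -1.07 in heterozygous and -0.91 in wild type cells (adjusted p = 0.00884 and 0.0106).

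Of 8 named motifs searched, the ETS core CCGGAAG was in 24.6% of member promoters and 11.9% of all promoters. The GC box GGGCGG was in 43.7% of member promoters and 46.3% of all. It was in 3 of the 11 promoters of members higher in wild type spermatids (27.3%) and 13 of the 20 of members that were lower (65.0%), a description of few promoters. The G and C content had a median of 54.0% in these 11 and 59.2% in these 20. The 150 bases before the start are printed for 2 members that were higher, Zfp451 and Zfp217, and 2 that were lower, Zfp281 and Zfp346, with GC boxes and ETS cores in capitals, on the strand of the gene.
Zfp451, chr1:33814596-33814745, minus strand: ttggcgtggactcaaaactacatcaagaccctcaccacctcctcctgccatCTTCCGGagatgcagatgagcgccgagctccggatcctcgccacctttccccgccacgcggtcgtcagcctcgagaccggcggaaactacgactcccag
Zfp217, chr2:170142676-170142825, minus strand: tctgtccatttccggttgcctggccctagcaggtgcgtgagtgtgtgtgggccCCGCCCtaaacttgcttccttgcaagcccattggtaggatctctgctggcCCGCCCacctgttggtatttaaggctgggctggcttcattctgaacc
Zfp281, chr1:136624751-136624900, plus strand: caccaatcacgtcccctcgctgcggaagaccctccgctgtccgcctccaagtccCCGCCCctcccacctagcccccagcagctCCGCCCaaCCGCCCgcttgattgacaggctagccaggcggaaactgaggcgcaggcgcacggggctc
Zfp346, chr13:55105172-55105321, plus strand: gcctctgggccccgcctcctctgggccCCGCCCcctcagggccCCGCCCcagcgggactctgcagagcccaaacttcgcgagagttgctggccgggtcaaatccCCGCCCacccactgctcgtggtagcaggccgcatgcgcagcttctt

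All capitals in these 4 windows read as the reverse complement of the motif as spelled above. Zfp451 shows 1 ETS core and no GC box, Zfp217 shows 2 GC boxes, and Zfp281 and Zfp346 show 3 GC boxes each.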

How the data were processed

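RNA of 11 preparations was measured, 1 array each, and groups were taken from the sample labels. Bead signals came from BeadStudio and were processed by the authors in lumi, for which the sources used here give no versions. Negative control means were subtracted, variance was stabilised and the deposited log2 values were quantile normalised. A deposited bead table has 22 columns that match no sample name, and these were not used. Arrays give no molecule counts, and their number limits the precision.

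Of 46643 probes, 32794 have 1 symbol on the platform, 55 several and 13794 none. Symbols were updated through the RefSeq gene table of GRCm38.p6 (32770 matched, 24 kept as given). Probes with several symbols named no gene. The dimmest 40% of probes by mean value were filtered out. Group means were estimated from the 11 arrays in 1 model with limma 3.58.1 (statmod 1.5.0, R 4.3.3), with 7 residual and 1.89 prior degrees of freedom. P-values of all probes in 4 contrasts were adjusted jointly by Benjamini-Hochberg at 0.05, and those of the interaction separately. The fit was tested on simulated data. Tables and plots used Python 3.11.15, pandas 2.3.3 and matplotlib 3.10.9.

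The members and lists were chosen with earlier results of these data known. Named are the 3 members with the smallest p in each genotype comparison and in the interaction, the 10 largest called increases and decreases between wild type cells, members of the role lists, X-linked members, members whose probes were called in opposite directions, the genes nearest to number 500, and the 3 genes most like a leading one. The 4 longer promoters printed are of named members. Members called only without 1 array, Zfp87, Zfp248, smaller changes, members with a second probe called and members with the shared promoter word were named after their values were seen. Alternatives were other filters, adjustments, priors, weights, normalisations and probe rules, a fit of only the 2 compared groups, a replicate block, and leaving out arrays. The reading of the symbol suffix was added after the data were seen.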

Additional observations from a re-analysis of the deposited data

How the results depend on the processing

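Single differences were followed for the members with the smallest genotype p-values or the largest changes between wild type cells. None of these changed sign over the alternatives run. Counts and medians were compared by their size alone. With array quality weights 1 member was called between spermatid genotypes, 47 between heterozygous and 68 between wild type cell types. Leaving out 1 array gave 0 to 2 members between spermatid genotypes, 10 to 42 between heterozygous cell types, 27 to 52 between wild type cell types, and 0 to 0 between spermatocyte genotypes and in the interaction. Without both spermatid arrays numbered 2 there was 1 call between spermatid genotypes and 42 between heterozygous cell types. The cause of these shifts was not tested. With 60% of probes left out the median difference between cell types was -0.18 in heterozygous and -0.26 in wild type cells, and with no filter it was -0.07 in wild type cells. Adjustment within each contrast gave 39 calls in heterozygous and 58 in wild type cells. Deviations of same-numbered arrays from their group means correlated at r = -0.256 to 0.329, and at 0.061 to 0.329 between the spermatid genotypes. With 2 or 3 arrays in a group these values cannot decide whether the numbers pair samples. With a replicate block the calls were 0 and 0 between genotypes, 26 in heterozygous cells, 40 in wild type cells and 0 in the interaction. Background correction from the bead table was not run because its columns match no sample, and a BeadChip block was not run because each chip holds 1 cell type. The 38 dim members were tested only where the filter was relaxed.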
